A study of Mus musculus with 4 samples.

Results

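Nuclear receptors are transcription factors that, in most cases, change their activity when a small lipophilic ligand binds them. The 41 genes described here are the members of that family in the mouse outside the Nr4a subfamily that were chosen by name, out of 21887 genes that RefSeq annotates as protein-coding in mm10 (GRCm38.p6). They were sorted, with textbook expression or action as a loose guide, into 3 groups. These are 11 receptors called brain-expressed here (Nr2f1, Nr2f2, Nr2f6, Rora, Rorb and the Rar and Rxr genes), 14 receptors of liver and gonad, and 16 others. The others include receptors that also act in brain, such as those of thyroid hormone and glucocorticoids. Counts of the first group therefore do not stand for all receptors expressed in brain. BRG1/BRM occupancy had been mapped by ChIP-seq in wild-type primary cortical neurons cultured from embryonic day 16.5 mice and harvested at 6 days in vitro. The J1 antibody recognizes both BRG1 and BRM, the alternative ATPases of BAF (SWI/SNF) remodellers, which move or evict nucleosomes. One group of cultures was kept at the basal KCl level. The other was depolarized with 50 mM KCl for 1 h, after tetrodotoxin (1 µM, a sodium channel blocker) and APV (100 µM, an NMDA receptor antagonist) had been added at 5 days in vitro. Whether basal cultures also received the blockers is not stated in the labels. Each condition had 1 immunoprecipitated (IP) library and 1 input, so differences between conditions carry no replicate error and were not tested. The labelled cell type could not be checked by expression here, since only occupancy was measured.

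Receptors of this family bind DNA as monomers, homodimers or heterodimers with a retinoid X receptor, mostly at sites built from the core letters AGGTCA, and recruit coactivators or corepressors that alter chromatin. In the cortex, the COUP-TF genes Nr2f1 and Nr2f2 are known for area patterning and for neuron fate, Rorb for layer 4 identity, and the thyroid hormone and glucocorticoid receptors for hormone control of maturation and of stress responses. Receptors such as Hnf4a, Nr1h4 (the bile acid receptor FXR) and Nr1i2 (the xenobiotic receptor PXR) are known from liver and gut, and Nr5a1 and Nr0b1 from gonad and adrenal.

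The data consisted of lists of enriched regions (islands), 711 in basal and 20966 in KCl neurons, each with its IP reads, its control reads and the fold of one over the other as the authors deposited it. The difference in list length limits any reading of a basal absence. Islands of the receptor genes held 30 to 411 IP reads. Brackets give 95% exact (Clopper-Pearson) intervals of the fold, with both read counts allowed to vary. They cover counting error only.

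Before the occupancy values, 7 promoters show the range of sequence under and outside the KCl islands. Each run is the 250 bases before a RefSeq start (RefSeq, GRCm38.p6), written 5′ to 3′ on the gene's strand, with CG dinucleotides in capitals. The first 4, Nr2f1 (chr13:78198874-78199123, minus strand), Thrb (chr14:17660710-17660959, plus strand), Rorb (chr19:19111197-19111446, minus strand) and Nr6a1 (chr2:38926462-38926711, minus strand), lay under a KCl island. The last 3, Nr2f2 (chr7:70366747-70366996, minus strand), Nr1i2 (chr16:38294825-38295074, minus strand) and Rxra (chr2:27676951-27677200, plus strand), did not.
Nr2f1: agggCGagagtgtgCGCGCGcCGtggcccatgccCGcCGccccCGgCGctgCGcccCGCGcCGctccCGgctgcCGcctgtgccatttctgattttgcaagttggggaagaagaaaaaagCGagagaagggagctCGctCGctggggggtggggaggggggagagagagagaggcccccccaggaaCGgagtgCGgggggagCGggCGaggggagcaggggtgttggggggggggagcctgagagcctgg
Thrb: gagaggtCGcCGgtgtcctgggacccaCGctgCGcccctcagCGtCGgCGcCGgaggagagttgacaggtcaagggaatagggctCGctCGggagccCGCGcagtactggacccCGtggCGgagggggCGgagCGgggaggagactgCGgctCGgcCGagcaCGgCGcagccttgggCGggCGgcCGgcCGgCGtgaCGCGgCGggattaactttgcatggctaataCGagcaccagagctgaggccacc
Rorb: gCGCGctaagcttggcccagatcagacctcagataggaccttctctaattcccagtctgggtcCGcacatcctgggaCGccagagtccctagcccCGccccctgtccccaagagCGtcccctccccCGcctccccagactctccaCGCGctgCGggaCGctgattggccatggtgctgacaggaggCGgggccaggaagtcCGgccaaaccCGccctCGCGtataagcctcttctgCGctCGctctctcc
Nr6a1: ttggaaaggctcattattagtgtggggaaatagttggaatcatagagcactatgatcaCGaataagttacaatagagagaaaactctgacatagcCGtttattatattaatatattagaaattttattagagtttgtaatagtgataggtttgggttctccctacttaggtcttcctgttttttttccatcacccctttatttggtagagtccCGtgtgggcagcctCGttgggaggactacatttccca
Nr2f2: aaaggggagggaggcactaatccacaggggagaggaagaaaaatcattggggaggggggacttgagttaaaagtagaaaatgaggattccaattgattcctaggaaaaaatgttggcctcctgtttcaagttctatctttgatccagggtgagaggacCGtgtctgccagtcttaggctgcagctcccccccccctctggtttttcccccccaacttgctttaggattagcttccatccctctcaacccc
Nr1i2: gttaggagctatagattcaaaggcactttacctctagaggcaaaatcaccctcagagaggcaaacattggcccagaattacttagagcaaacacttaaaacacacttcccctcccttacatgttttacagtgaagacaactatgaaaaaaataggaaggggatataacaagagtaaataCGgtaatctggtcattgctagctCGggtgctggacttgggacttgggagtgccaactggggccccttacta
Rxra: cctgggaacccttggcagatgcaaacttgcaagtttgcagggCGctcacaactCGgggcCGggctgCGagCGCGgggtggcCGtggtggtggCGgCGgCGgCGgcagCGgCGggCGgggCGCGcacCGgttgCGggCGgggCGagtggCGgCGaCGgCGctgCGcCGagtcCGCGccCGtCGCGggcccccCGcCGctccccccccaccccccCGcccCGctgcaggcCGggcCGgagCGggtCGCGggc

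The capitals number 22 in Nr2f1, 30 in Thrb and 18 in Rorb, but 4 in Nr6a1, whose island was the most enriched of the 4, although the 50 bases after its start add more (10 in all 300). They number 1 in Nr2f2 and 2 in Nr1i2, and 40 in Rxra, the richest of the 7, which had no island. By count, CG content and coverage thus went together at some of these promoters and not at others. Relative to the C and G content of the 300 bases, however, Nr6a1 was not poor in CG. Its ratio of observed to expected CG was 0.769, against 0.717 in Nr2f1, 0.713 in Rorb and 0.946 in Thrb. The ratio was 0.109 in Nr2f2, 0.130 in Nr1i2 and 1.08 in Rxra. By this ratio Rxra alone of the 7 went against coverage. Counts over all receptor promoters follow further on.

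After depolarization, BRG1/BRM islands lay within 2 kb of a gene end at 11 of 41 receptor genes, and in the gene body or within 50 kb at 30 of 41. In basal neurons there was no island in either region of any member. Of all protein-coding genes, 25.2% had a KCl island at an end and 59.4% in the body or within 50 kb. The receptor count at ends (26.8%) was therefore near the background, and the wider count (73.2%) was above it. Receptor genes were longer than the average gene (median 56.8 kb against 17.2 kb), and longer genes more often hold an island, so the counts were also read within classes of gene length. Under 20 kb, 2 of 11 receptor genes had a KCl island at an end, where the share of all genes of that length was 17.5%, and 7 of 11 had one in the wider region, against 49.0%. From 20 to 100 kb the counts were 3 of 17 against 30.7% at ends and 11 of 17 against 66.2% in the wider region. Over 100 kb they were 6 of 13 against 45.5% and 12 of 13 against 88.5%. Within these classes the receptor shares were close to those of all genes, except for a lower share at the ends of genes from 20 to 100 kb and a higher share around genes under 20 kb. Both exceptions rest on a few genes.

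In basal neurons, 0.411% of all genes had an island at an end and 2.94% in the body or within 50 kb. A count of 0 among 41 genes allows a share of up to 7.32%, so the absence of basal islands was not distinguishable from the background. The nearest basal island to any receptor gene lay 156 kb from Esrrb, and the median distance was 1497 kb. No receptor island was therefore shared by the lists, and the values that follow are of the KCl library unless basal is stated.

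The groups of receptors differed in their counts at gene ends. Brain-expressed receptors had an island at an end in 2 of 11 cases (18.2%), receptors of liver and gonad in 1 of 14 (7.14%), and the other receptors, among them the thyroid hormone and corticosteroid receptors, in 8 of 16 (50.0%). In the body or within 50 kb the counts were 9 of 11, 7 of 14 and 14 of 16. Brain-expressed receptors were thus above the background of 59.4% in the wider region and near that of 25.2% at ends. Liver and gonad receptors were below both, but at an FDR of at most 1e-05 they kept 7 of 14 in the wider region (all genes 46.5%). These backgrounds are not matched for length, and all 3 groups were longer than the average gene (medians 41.3, 67.9 and 61.3 kb). In the 3 length classes, from short to long, the other receptors had an end island in 1 of 4, 3 of 6 and 4 of 6. Brain-expressed receptors had 1 of 4, 0 of 4 and 1 of 3, and liver and gonad receptors 0 of 3, 0 of 7 and 1 of 4. The shares of all genes were 17.5%, 30.7% and 45.5%. In the wider region, brain-expressed receptors had 4 of 4, 2 of 4 and 3 of 3. Liver and gonad receptors had 0 of 3, 4 of 7 and 3 of 4 there, and all genes 49.0%, 66.2% and 88.5%. The order of the first 2 groups in the wider region changed with a cut on fold but not with the other cuts on islands. With islands of at least 2-fold alone, 4 of 11 brain-expressed and 6 of 14 liver and gonad receptors had an island there (all genes 38.2%). At an FDR of at most 1e-05 the counts were 6 of 11 and 7 of 14. They were the same with an interval above 1 (all genes 52.1%). No test of these differences was made, since genes are not replicates of a condition.

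**Figure D1:**
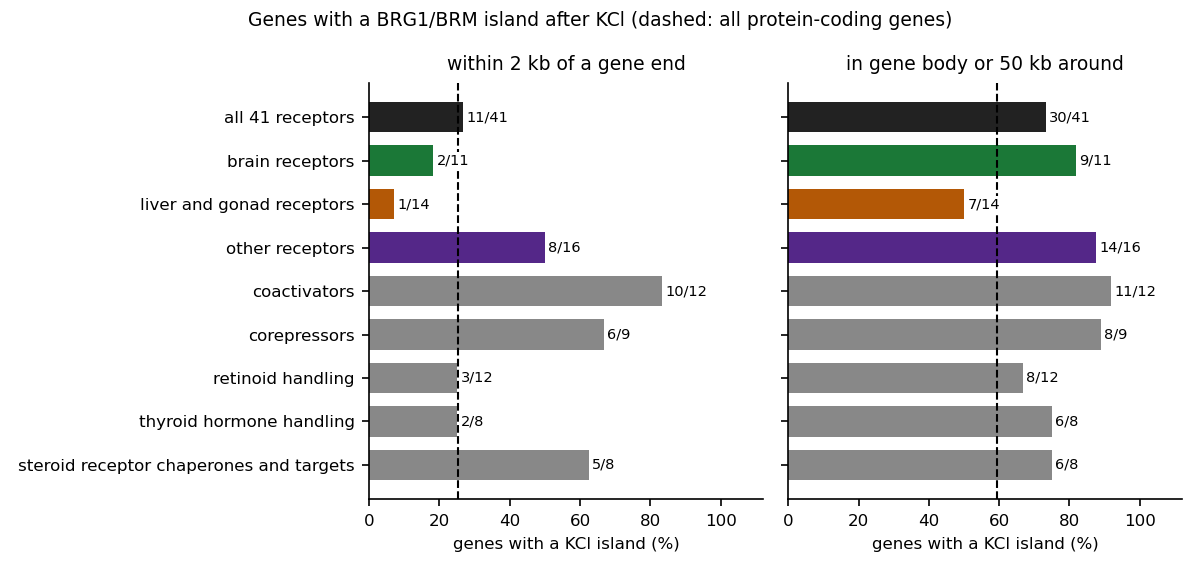
Share of genes (x axis, %) with a KCl island within 2 kb of a gene end (left) or in the gene body or 50 kb around (right), for the 41 receptor genes, their 3 groups and 5 lists of cofactor and ligand-handling genes, with counts beside the bars. Dashed lines mark all protein-coding genes (25.2% and 59.4%); liver and gonad receptors lie below both lines, and coactivators lie furthest above them.

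Among the brain-expressed receptors, the COUP-TF I gene Nr2f1 was the most widely covered. It had 5 islands in its body or within 50 kb, a number that 1.11% of genes under 20 kb reached. Together they spanned 29.4 kb and held 769 IP and 245 control reads. The largest, chr13:78196601-78212000, covered the start of the gene and was 15400 bp wide, from 13.1 kb before the start to 2.27 kb inside the gene. Of the 20966 KCl islands, 14 were as wide or wider (0.0668%, itself included). It held 411 IP and 126 control reads, which is 2.05-fold [1.67 to 2.52]. Its read density was ordinary, 26.7 IP reads per kb against a median of 35.0 over all KCl islands, so it stood out by width and not by height. The same island covered one end of the noncoding gene A830082K12Rik, whose end overlaps that of Nr2f1. A second island lay inside Nr2f1 (47 IP and 12 control reads, 2.46-fold [1.28 to 5.09]). Past its 3′ end, 3 more lay in or beside the noncoding genes Gm38604 and 3110006O06Rik and the end of Fam172a, at 1.77-fold to 1.93-fold.

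**Figure D2:**
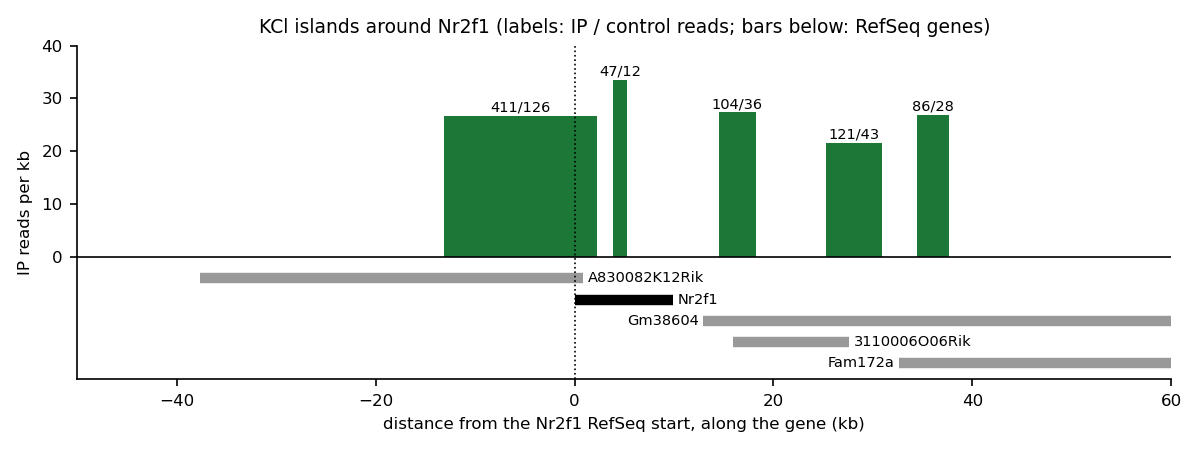
KCl islands around Nr2f1 by distance from its RefSeq start along the gene (x axis, kb); bar height is IP reads per kb, labels give IP and control reads, and lines below are RefSeq genes in the window. The widest island spans the start and holds 411 IP reads, and the other 4 lie downstream.

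Its paralog Nr2f2 (COUP-TF II), 14.8 kb long against 9.90 kb for Nr2f1, had 1 island, inside the gene and 3.55 kb from the nearest end. It held 52 IP and 21 control reads, 1.56-fold with an interval that included 1 [0.921 to 2.72]. Nr2f6, the third COUP-type gene, had no island of its own within 2 kb of an end. Its 1 neighbour, 2.12 kb away, lay within 2 kb of ends of Use1 and Ocel1 and was 1.64-fold [0.979 to 2.86]. The COUP-TF genes therefore ranged from a broad domain to weak single islands.

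Rorb, the layer 4 factor, had 3 islands. The one over its start held 64 IP and 28 control reads and was weak, 1.44-fold [0.907 to 2.33]. The 2 inside the gene were more enriched, with 61 IP and 13 control reads in one (2.95-fold [1.60 to 5.85]) and 36 and 8 in the other (2.83-fold [1.29 to 7.04]). Rora, which is expressed in thalamus and cerebellum above all and is 735 kb long, had 2 islands of 600 bp deep in its body (2.89-fold [1.44 to 6.42] and 2.69-fold [1.16 to 7.26]) and none at an end. Of the genes over 100 kb, 71.8% had at least as many islands.

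The retinoic acid receptors had none at their ends. Rara had 1 island in its body (108 IP and 41 control reads, 1.65-fold [1.14 to 2.43]). Rarb had 2, at 2.04-fold [1.15 to 3.83] and 1.73-fold [0.869 to 3.67]. Rarg had 1, of 78 IP and 28 control reads (1.75-fold [1.12 to 2.80]), which covered an internal RefSeq start. Among the retinoid X receptors, the shared heterodimer partners, Rxra and Rxrg had no island within 50 kb, and that near Rxrb lay at the ends of Ring1, H2-Ke6 and Slc39a7 (1.43-fold [0.880 to 2.39]). Rara, Rarb, Rarg and Rxrb thus had 1 or 2 islands each, with folds of 1.43 to 2.04. Such numbers are common. Of all genes in the same length class, 66.2% had at least as many as Rara or Rarg, 71.8% as Rarb and 49.0% as Rxrb.

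**Figure D3:**
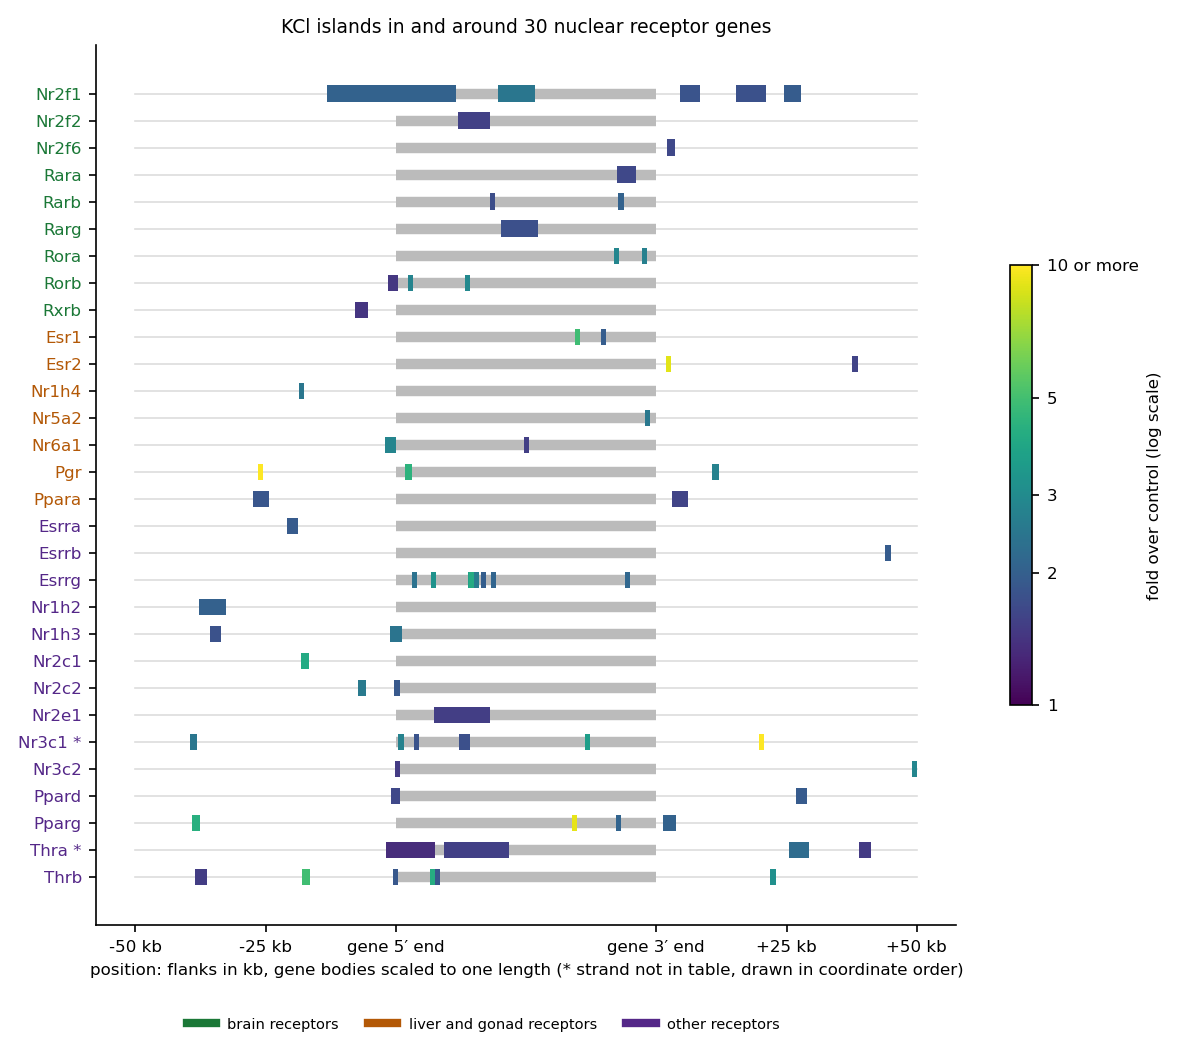
KCl islands in and around the 30 receptor genes that had one. Flanks are in kb and each gene body is scaled to one length (x axis). Colour gives the fold over control on a log scale, and narrow islands are drawn at a fixed smallest width. Thra and Nr3c1 (marked *) are drawn in coordinate order, since their strand was not in the promoter table, so their left end need not be the 5′ end. Islands sit at either end, inside or in the flanks without one common place, and those of 5-fold or more are few and narrow.

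The thyroid hormone receptor genes, which mediate the action of triiodothyronine in the maturing brain, were both covered. Thrb, 381 kb long, had 6 islands, a number that 20.4% of genes over 100 kb reached. The island over the start of Thrb held 122 IP and 41 control reads (1.87-fold [1.30 to 2.73]) and also lay at an end of LOC115488350. An island 16.4 kb before the gene was the most enriched of the 6, with 102 IP and 13 control reads (4.93-fold [2.76 to 9.57]). Thra had 4 islands, of which the 2 broad ones (6200 and 7000 bp) lay across the end at the lower coordinate and in the body. They held 149 IP and 70 control reads (1.34-fold [1.0 to 1.80]) and 165 and 67 (1.55-fold [1.16 to 2.09]). The other 2, in the flank, lay at ends of Msl1 and Casc3 and were 4000 bp at 2.24-fold [1.53 to 3.36] and 2200 bp at 1.49-fold [0.936 to 2.43].

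The glucocorticoid receptor gene Nr3c1, the main receptor of the stress hormone corticosterone, had 6 islands, a number that 20.4% of genes over 100 kb reached. At the end with the lower coordinate 114 IP stood against 26 control reads (2.75-fold [1.79 to 4.39]). An island in the body reached 3.61-fold [1.94 to 7.33]. The island with the largest fold of any receptor lay 19.8 kb outside the gene, with 49 IP reads and 1 control read (30.8-fold [5.27 to 1240]), so that its size rests on that single control read. The mineralocorticoid receptor gene Nr3c2 had a weak island at its upstream end (57 IP and 24 control reads, 1.49-fold [0.911 to 2.51]) and 1 in its flank (2.89-fold [1.44 to 6.42]).

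Of the lipid-sensing receptors, the liver X receptor gene Nr1h3 had an island at its upstream end (50 IP and 13 control reads, 2.42-fold [1.29 to 4.85]), which was also at an end of Acp2 and lay 7285 bp from the nearest start in the promoter table. The start of Ppard held 55 IP and 21 control reads (1.64-fold [0.979 to 2.86]). Pparg, the adipocyte receptor, had 4 islands and none at its starts. One lay past its downstream end (78 IP and 24 control reads, 2.04-fold [1.28 to 3.37]), and the highest, inside the gene, held 44 IP and 3 control reads (9.21-fold [2.95 to 46.4]). Nr1h2 had 1 island in its flank at an end of Napsa, and the vitamin D receptor gene Vdr had none within 50 kb.

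The orphan receptors of the Nr2c and Nr2e types and the estrogen-related receptors followed no common pattern. Nr2c2 (TR4) had an island over its start (48 IP and 16 control reads, 1.88-fold [1.05 to 3.55]). Nr2c1 (TR2) had 1 in its flank, inside Fgd6 (4.06-fold [2.43 to 7.23]). Nr2e1 (TLX), a factor of neural stem cells, had 1 in its body (1.52-fold [1.04 to 2.24]), and the photoreceptor factor Nr2e3 had none. Esrrg, which acts in neuronal energy metabolism, had 8 islands, all inside its 606 kb body, a number that 10.7% of genes over 100 kb reached. The highest of them held 91 IP and 14 control reads (4.08-fold [2.31 to 7.76]), and 1 of the 8 covered an internal RefSeq start (2.39-fold [1.17 to 5.37]). Esrra and Esrrb each had 1 island, in the flank, and that near Esrra lay at ends of Gpr137 and Bad.

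Of the receptors of liver and gonad, Nr6a1, a germ cell nuclear factor, was the 1 with an island at an end. The island covered its start and held 77 IP and 17 control reads, and its fold was the highest among the 11 ends, 2.84-fold [1.67 to 5.13]. Hnf4a, Hnf4g, Nr1i2, Nr1i3, Nr0b2, Nr5a1 and Nr0b1 had no KCl island within 50 kb. The largest distance was that of Hnf4g, whose nearest island to an end was 1067 kb away. Nr1h4 and Nr5a2 had 1 each, in the flank (2.46-fold [1.28 to 5.09]) and in the body (2.51-fold [1.38 to 4.89]). Ppara had 2, of which 1 lay at ends of Cdpf1 and Pkdrej. Of the 11 receptor genes without an island, 7 thus belonged to liver and gonad, and the other 4 were Rxra, Rxrg, Nr2e3 and Vdr.

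The sex steroid receptors, which act in brain as well as in gonad and uterus, held the most enriched islands of this group. Esr1 had 2 in its body, and the higher held 125 IP and 16 control reads (4.91-fold [2.91 to 8.85]). Esr2 had 2 in its flank, of which 1 lay 2.02 kb from its end, just outside the window, with 43 IP and 3 control reads (9.0-fold [2.88 to 45.4]). Pgr had 3. One, 600 bp wide, held 38 IP and 2 control reads (11.9-fold [3.08 to 102]) in the flank, and one inside the gene held 49 and 7 (4.40-fold [1.98 to 11.5]). The median fold was 2.51 over the 13 islands of liver and gonad receptors, 1.81 over the 17 of brain-expressed receptors and 2.09 over the 41 of the others, against 2.40 over all KCl islands. Median widths were 1800 bp for liver and gonad receptors, 2400 bp for brain-expressed receptors and 1600 bp for the others. Where liver and gonad receptors had islands they were therefore not the weaker ones, and the 3 sex steroid receptors accounted for 7 of the 13.

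By position, 11 of the 71 KCl islands of receptor genes lay at an end, 32 in a body and 28 in a flank. The median fold was 1.88 at ends and 2.12 in bodies and flanks, and over all KCl islands it was 1.82 at gene ends and 2.67 elsewhere. The last 2 sets are unlike. Receptor bodies and flanks include 11 islands at ends of other genes (median 1.79), and the 2.67 leaves out islands at any gene end. At 4 of the 11 ends (Thra, Rorb, Nr3c2 and Ppard) the interval of the fold reached 1. At the other 7 (63.6%) it lay above 1, against 76.1% of all KCl islands at gene ends. Of the 28 flank islands, 11 lay within 2 kb of an end of another gene, as did 2 of the end islands. Of the 11 end islands, 7 lay within 2 kb of a RefSeq start of the member, 1 at the upstream end farther from a listed start and 1 at the downstream end, and for Thra and Nr3c1 no start was in the table. At the threshold of 2 kb, the farthest inside was Pparg at 1.20 kb, while Esr2 at 2.02 kb, Nr2f6 at 2.12 kb, Pgr at 2.50 kb and Ppara at 2.95 kb lay just outside.

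**Figure D4:**
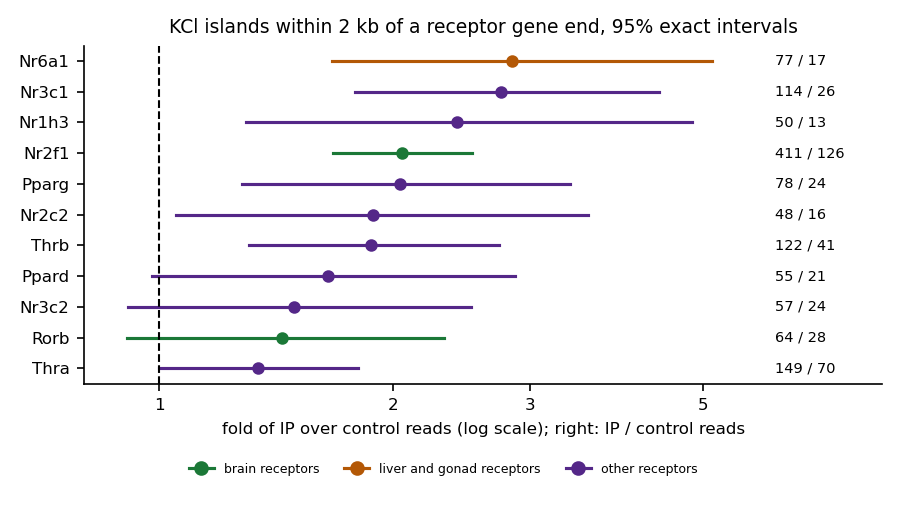
Fold of IP over control reads (x axis, log scale) of the 11 KCl islands within 2 kb of a receptor gene end, with 95% exact intervals and the IP and control reads at right. Nr6a1 is highest at 2.84-fold, and the intervals of Ppard, Nr3c2, Rorb and Thra reach 1.

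Promoters of 300 bases (250 before and 50 after a start) were on hand for 37 of the 41 receptor genes, with Thra, Nr3c1, Hnf4g and Nr5a1 left out. A promoter counted as covered when an island overlapped it by at least 1 bp, whether or not the start itself lay inside. A KCl island covered at least 1 promoter of 8 of the 37 (21.6%), against 22.5% of all genes with an entry. It lay within 2 kb of a start in 10 of 37 (27.0%), against 24.0%. These 10 were Nr2f1, Rorb, Rarg, Thrb, Ppard, Nr2c2, Nr3c2, Esrrg, Nr6a1 and Pgr. Across all genes, promoters with a CpG ratio (CG dinucleotides observed over expected from the C and G content) of 0.6 and above were covered in 37.9% of cases, those from 0.4 to 0.6 in 19.4%, and those below 0.4 in 4.35%. The 58 receptor promoters gave 7 of 25, 2 of 12 and 1 of 21. The covered promoter below 0.4 was the second one of Nr2f1 (0.294), of which the island overlapped the upstream part and not the start. The median ratio was 0.743 over the 10 covered and 0.456 over the 48 others. Promoters of liver and gonad receptors had the lowest median ratio of the 3 groups (0.419, against 0.604 for brain-expressed and 0.653 for the others). The part of CpG content in the lower coverage of that group was not tested. CpG-rich starts without an island were found as well, at Rxra (1.08), Rora (1.05), Rxrb (1.05) and Nr2f6 (1.04).

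**Figure D5:**
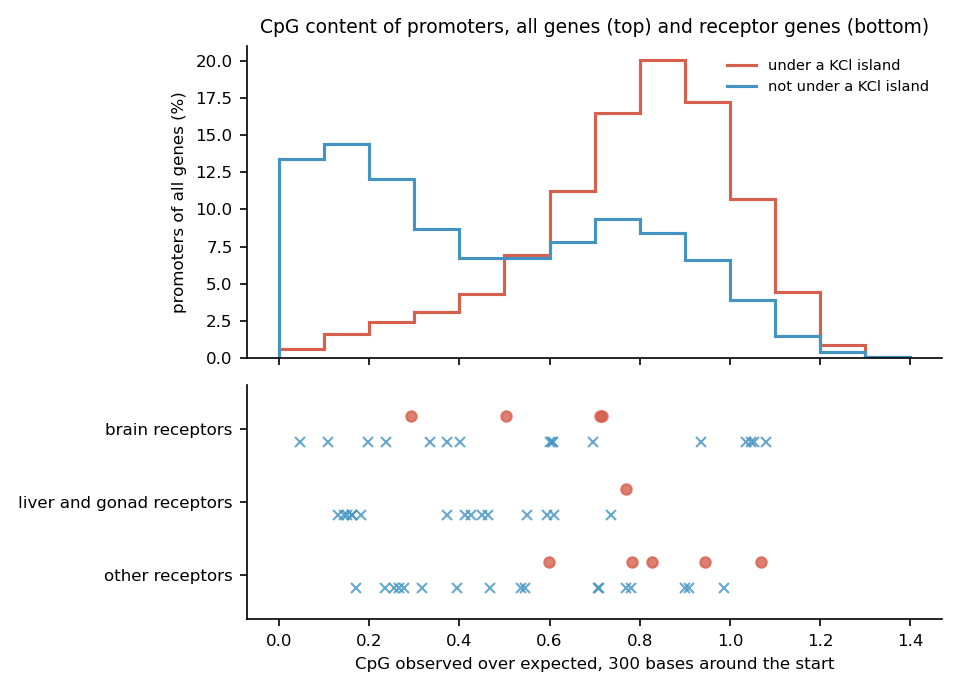
CpG observed over expected (x axis) of 300-base promoters; the upper panel shows the percentage of all covered (red) and not covered (blue) promoters in each bin, and the lower panel the receptor promoters, with dots for those overlapped by a KCl island and crosses for the rest. Covered promoters lie mostly at 0.6 and above in both panels, and crosses at 1 or more show CpG-rich receptor promoters without an island.

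Letters of 3 motifs were counted on both strands of the same promoters, and no pair of them overlaps. AGGTCA, the core of most nuclear receptor sites, was in 11 of 58 receptor promoters (19.0%) and in 14.7% of all promoters. It was in 1 of the 10 covered ones, that of Thrb, where it stands in the run printed above. TGACGTCA, the cyclic AMP response element, was in 2 of 58, Nr6a1 and Nr2e1 (all promoters 2.23%). TGANTCA, the AP-1 site, was in 3 of 58 (all promoters 6.99%), none of them covered.

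The genes of receptor cofactors had an end island in larger shares than the receptors. Coactivator genes had a KCl island at an end in 10 of 12 cases and corepressor genes in 6 of 9, against the background of 25.2%. Among islands at gene ends, the largest coactivator folds were those of Ncoa3 (3.38-fold [1.57 to 8.31]) and Med1 (2.97-fold [1.69 to 5.59]), with Ncoa6 (2.58-fold [1.53 to 4.59]) and Ncoa2 (2.57-fold [1.75 to 3.88]) next. Med1 encodes the Mediator subunit that binds receptors, and the Ncoa genes encode coactivators. At the ends of corepressor genes, Hdac3 (2.74-fold [1.40 to 5.85]) and Tbl1xr1 (2.66-fold [1.77 to 4.10]) led, and Ncor1 was at 1.75-fold [1.24 to 2.50]. Some islands away from the ends of these genes had larger folds, up to 4.49 for coactivators (Ncoa3) and 6.75 for corepressors (Tbl1x), both in gene bodies. The islands of Ncoa3, Med1 and Hdac3 also lay at ends of LOC115489489, Fbxl20 and Diaph1. Both lists hold long genes (median 96.3 kb for coactivators and 113 kb for corepressors). Over 100 kb, 4 of 6 coactivator and 4 of 5 corepressor genes had an end island, against 45.5% of all genes. From 20 to 100 kb the counts were 5 of 5 and 1 of 1, against 30.7%. Under 20 kb they were 1 of 1 and 1 of 3, against 17.5%. Ncor1, a corepressor of unliganded receptors, also had an island in basal neurons, with 54 IP and 28 control reads (2.19-fold [1.36 to 3.59]), at the end it shares with Pigl and under the KCl island there. Basal islands also lay in the body of Lcor (1.70-fold [1.11 to 2.64]) and 28.8 kb from Crym (2.65-fold [1.31 to 5.73]).

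Genes that make or clear the ligands had end counts at the background. Retinoid-handling genes had 3 of 12, Aldh1a1 (1.91-fold [1.17 to 3.25]), Rdh10 (1.79-fold [1.21 to 2.72], also at an end of Rpl7) and Dhrs3 (1.63-fold [1.09 to 2.49]), which encode enzymes of retinal and retinoic acid formation or its control. Thyroid hormone genes had 2 of 8, the transporter gene Slco1c1 (3.32-fold [1.46 to 8.82]) and the hormone-responsive factor gene Klf9 (2.27-fold [1.54 to 3.43]). Steroid receptor chaperones and targets were above the background of 25.2%, with 5 of 8 (62.5%). Under 20 kb they had 3 of 5, where the share of all genes was 17.5%. The largest folds were those of Fkbp5 (2.12-fold [1.25 to 3.74]), Hsp90ab1 (2.05-fold [1.32 to 3.28]), Hsp90aa1 (1.85-fold [1.10 to 3.25]) and Sgk1 (1.71-fold [1.16 to 2.58]). For comparison, 2 of the 3 Nr4a genes had an end island, and the 3 had 13 islands within 50 kb, a median of 2.83 per 100 kb of window against 0.680 for the 41 receptors and 0.748 for all genes.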

How the data were processed

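BRG1/BRM ChIP-seq islands were used for 1 basal and 1 KCl IP library. Separate input files were not used here. Per the submitters' processing notes, reads were aligned with BWA to mm10 (GRCm38) and islands called with SICER 1.0. The list names give 200 bp windows, 600 bp gaps and FDR 0.01. The authors deposited, for every island, the count of IP reads, the count of control reads, a p-value with its FDR, and the fold, the IP/control ratio over a library constant (1.59 for KCl and 0.880 for basal, recomputed here). Total depth is not given in the sources used here.

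Island coordinates were made 1-based. A gene counted when an island overlapped by at least 1 bp a window of 2 kb around either gene end, or the gene body with 50 kb flanks (RefSeq table of GRCm38.p6; all 41 members matched by symbol). In place of length-matched random genes, shares over all genes of the same length class were used. Starts and strands came from the RefSeq promoter table. No named receptor island had 0 control reads. Folds have 95% exact intervals. Overlap code, checked on simulated islands and against bedtools 2.31.1, ran in Python 3.11.15 with pandas 2.3.3 and scipy 1.17.1. Members, groups and lists were chosen with earlier results of these data known. Members with an island at an end were all named, as were up to 4 genes of each other list by KCl fold at an end. Islands away from ends, and the printed promoters, were chosen after their values were seen. Some genes that meet these rules are not reported here.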

Additional observations from a re-analysis of the deposited data

How the results depend on the processing

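All basal counts were 0, and the lists shared 0 receptor islands, under every alternative run. For KCl, the alternatives below moved a count by more than 1.5 times (18 did, and 39 over both conditions did not). At the ends of the 41 receptors, 6 genes were left at an FDR of at most 1e-05 (all genes 15.1%), 5 at a fold of at least 2 (8.74%) and 7 with an interval above 1 (19.2%), and a window of 5 kb gave 19 (29.0%). For brain-expressed receptors these values were 1, 1, 1 and 5. For liver and gonad receptors the window of 5 kb gave 5, and RefSeq starts in place of both ends, an alternative chosen after seeing the data, gave 2. In bodies and flanks, a fold of at least 2 left 4 of 11 brain-expressed receptors (all genes 38.2%). The gene body alone left 4 of 14 liver and gonad receptors (all genes 31.1%). When the KCl list was shortened by p to the length of the basal list, 1 receptor kept an end island (Nr2f1; all genes 0.114%) and 4 an island in the wider region (Nr2f1, Thrb, Nr3c1 and Esr1; all genes 2.42%), which is 1 brain-expressed receptor in either region, and 0 at ends and 1 in the wider region for liver and gonad. Leaving out islands at ends of other genes, also added after seeing the data, kept 9 of 11 and 25 of 30. No share over all genes was computed for that setting. Each alternative changes, by construction, how many islands are kept or how much sequence is searched. No paired analysis was possible because each condition had 1 IP library and no test was made. Read counts limit weak islands: 12 of the 71 had an interval that reached 1. In 83.1% of the 71 it lay above 1, against 86.4% of all KCl islands.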
